A study of Homo sapiens with 8 samples.

Results

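Metallothionein genes and the machinery that answers zinc were followed in U-CH1 and MUG-Chor1, established human cell lines grown from chordoma, a bone tumour that carries features of the notochord. The group held 9 genes: the metallothioneins MT1A, MT1E, MT1F, MT1G, MT1M, MT1X and MT2A, the zinc-sensing transcription factor MTF1 and the zinc exporter SLC30A1. They were selected by name, as probe sets whose single gene symbol in the platform annotation was one of these. The brightest probe set was to be taken where a gene had several, but each gene found had 1, so no measured level entered that step. A probe set with a single symbol was found for 8 of the 9 genes, out of 22395 genes named in this way, and all 8 were among the 16986 genes tested. MT1A was not analysed here. The list itself was drawn up with earlier results of these arrays in view, so the adjusted p-values below describe the size of a difference against the replicate spread and are not independent support for the choice.

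The samples were 8 whole-transcript arrays. Untreated U-CH1 and untreated MUG-Chor1 were each measured on 3 control arrays, and each line had 1 array from cells kept in 10 ng/mL recombinant human TNF-α for 1 week, added 3 times a week. All cells grew as monolayers on gelatin in medium with fetal bovine serum. The labels name no change of genotype in any group, and each line is a single tumour line. The labels do not say whether the controls came from separate cultures, so a p-value measures only the spread between these arrays, which may be technical.

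Metallothioneins are very small, cysteine-rich proteins that bind zinc, copper and cadmium. When free zinc rises in a cell, MTF1 binds it, enters the nucleus and attaches to short metal response elements in the promoters of metallothionein genes and of SLC30A1, whose product carries zinc out across the plasma membrane. Metallothionein genes are also known to respond to glucocorticoids, oxidants and inflammatory cytokines. The human genes lie side by side on chromosome 16. RefSeq (GRCh38.p14) places 16 genes and pseudogenes of the family there in one run with 3 other genes between them, and 15 of the 16 had a probe set with a single symbol. Many of them are near-identical copies of each other, and the sequences of the array's probes were not used here. Reads of one copy by the probe set of another therefore cannot be told apart from that copy's own RNA.

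The stretch before the start site is shown for MT2A, MT1X, MT1H and SLC30A1, because it can hold the element that MTF1 recognises. The RefSeq promoter table (GRCh38.p14) held MT2A, MT1X, SLC30A1 and MTF1 among the 9 genes, and also MT1H, a neighbour described below. MT1A, MT1E, MT1F, MT1G and MT1M were not matched, so no stretch is shown for the 3 genes called between the lines. The 250 bases upstream of the start were searched on both strands for the core of the metal response element, spelled TGCACNC or TGCGCNC, which differ at 1 base and so never count the same position more than once on 1 strand. Matches are in capitals. MT2A lies at chr16:56608334-56608583, MT1X at chr16:56682220-56682469 and MT1H at chr16:56669564-56669813, all on the plus strand, and SLC30A1 at chr1:211579162-211579411 on the minus strand.
MT2A: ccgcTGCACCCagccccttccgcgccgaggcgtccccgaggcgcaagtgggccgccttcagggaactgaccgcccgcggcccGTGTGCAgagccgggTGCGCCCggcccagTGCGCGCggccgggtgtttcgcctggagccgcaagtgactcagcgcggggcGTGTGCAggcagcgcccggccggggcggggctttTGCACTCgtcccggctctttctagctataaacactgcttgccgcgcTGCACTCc
MT1X: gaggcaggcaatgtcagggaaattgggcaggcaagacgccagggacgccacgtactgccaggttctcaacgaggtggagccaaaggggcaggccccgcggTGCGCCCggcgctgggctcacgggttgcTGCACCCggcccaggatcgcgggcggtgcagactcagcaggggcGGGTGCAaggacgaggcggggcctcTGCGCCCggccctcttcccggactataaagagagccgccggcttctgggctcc
MT1H: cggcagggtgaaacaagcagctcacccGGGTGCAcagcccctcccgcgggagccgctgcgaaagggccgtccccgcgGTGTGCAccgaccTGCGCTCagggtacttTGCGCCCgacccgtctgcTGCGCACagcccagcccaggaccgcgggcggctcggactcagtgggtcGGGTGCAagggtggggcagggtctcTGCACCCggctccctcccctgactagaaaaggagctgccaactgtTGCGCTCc
SLC30A1: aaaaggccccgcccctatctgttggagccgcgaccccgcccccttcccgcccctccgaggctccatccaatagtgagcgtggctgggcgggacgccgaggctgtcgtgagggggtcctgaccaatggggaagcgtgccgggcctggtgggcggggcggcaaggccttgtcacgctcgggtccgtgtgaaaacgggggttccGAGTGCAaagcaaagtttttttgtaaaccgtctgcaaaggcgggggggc

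The MT1H stretch held 8 matches, MT2A 7, MT1X 4 and SLC30A1 1, the last on the strand opposite to the gene. Among 35116 promoters of the same length, 0.0171% held at least 8, 0.0313% at least 7, 0.37% at least 4 and 24.8% at least 1. The MT1X match nearest the start began 53 bases before it, and MT1H had one at the same distance. The MTF1 stretch held no match to either spelling of the core in this window. A match is a description of the sequence and not a measured binding site.

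Array medians ran from 2.52 to 2.63 on the log2 scale of the deposited values, on which all levels and differences below are given. The chordoma marker TBXT, which encodes brachyury, read 7.51 to 9.75 over the 8 arrays, and PTPRC, a defining leukocyte gene, 0.93 to 1.23, under the low mark given below. MUG-Chor1 control 3 stood apart from the other controls of its line, correlating with controls 1 and 2 at 0.960 and 0.959 over the genes tested, against 0.981 between those 2 and 0.962 to 0.967 among the U-CH1 controls. No detection call was available; 2.57, the median of all deposited values, served as the low mark, and a gene was tested if it passed this on at least 1 array. MT1F and MT1M passed only through MUG-Chor1 arrays, so for these the filter itself favoured a difference between the lines.

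In untreated cells, 3 metallothioneins stood higher in MUG-Chor1 than in U-CH1. These were MT1F, MT1M and MT1G, all isoforms of the metallothionein 1 group, and none of the 8 genes was called lower. MT1F read 1.80, 2.34 and 2.47 on the U-CH1 controls and 5.80, 6.18 and 7.80 on the MUG-Chor1 controls. The groups lay far apart, and U-CH1 was below the low mark on every control. The difference was 4.39 ± 0.44 (SE, n = 3 and 3; limma adjusted p = 8.55e-05, and 0.000281 with no filter on low values). With U-CH1 under the low mark no fold is given. It was 3.78 without MUG-Chor1 control 3 and stayed called (limma adjusted p = 6.86e-06).

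MT1M read 1.30, 2.34 and 1.47 on the U-CH1 controls and 3.84, 4.01 and 5.50 on those of MUG-Chor1. Again no U-CH1 control reached the low mark and the groups did not overlap. The difference was 2.75 ± 0.42 (SE, n = 3 and 3; limma adjusted p = 0.00126, and 0.00289 with no filter on low values), and 2.23 without MUG-Chor1 control 3. MT1G read 2.79, 2.04 and 2.63 in U-CH1 and 4.19, 3.66 and 6.02 in MUG-Chor1. These groups were apart too, with a difference of 2.14 ± 0.50 (SE, n = 3 and 3; limma adjusted p = 0.0128). The U-CH1 control mean of 2.49 was under the low mark, so no fold is given here either. The MT1G call was the least settled of the 3: it ended without U-CH1 control 2 (limma adjusted p = 0.0583). Without MUG-Chor1 control 3 the difference was 1.44 and stayed called (limma adjusted p = 0.00488).

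The other metallothioneins of the group were not called between the lines. MT2A, the most widely expressed human metallothionein, read 6.95, 6.62 and 6.45 in U-CH1 and 6.79, 6.43 and 7.23 in MUG-Chor1. The groups overlapped, and the difference of 0.15 had a 95% interval of -0.39 to 0.69 (limma adjusted p = 0.730). MT1E read 4.04, 3.35 and 4.13 in U-CH1 and 3.87, 3.89 and 3.65 in MUG-Chor1, also overlapping, with an interval of -0.56 to 0.49. MT1X read 5.998, 5.99 and 6.99 in U-CH1 and 6.65, 6.67 and 8.07 in MUG-Chor1. It overlapped through the highest U-CH1 control, and its difference of 0.81 had an interval of -0.07 to 1.69 (limma adjusted p = 0.195). Without MUG-Chor1 control 3 it was 0.34 (limma adjusted p = 0.521), and that of MT2A was -0.06.

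The regulator and the exporter differed less between the untreated lines. MTF1 read 6.10, 6.14 and 6.65 in U-CH1 and 6.86, 6.77 and 6.84 in MUG-Chor1. All MUG-Chor1 values were above all U-CH1 values, but the difference of 0.52 ± 0.21 (SE, n = 3 and 3) did not pass (limma adjusted p = 0.108). Without U-CH1 control 3, its highest U-CH1 value, it was 0.70 and passed (limma adjusted p = 0.0424). SLC30A1 read 6.55, 7.27 and 7.11 in U-CH1 and 6.38, 6.53 and 6.68 in MUG-Chor1, with overlap at 1 array and a difference of -0.45 ± 0.23 (limma adjusted p = 0.209). Of the 8 genes, 3 were called higher in MUG-Chor1 and 0 lower, where 18.9% of all genes tested were called, 10.3% higher and 8.57% lower. Every MUG-Chor1 control was above every U-CH1 control for 4 of the 8, against 18.1% of all genes tested, and below for 0 of the 8, against 18.2%. Since MT1F and MT1M entered the test only through the line in which they are high, these counts do not support a pattern over the 8 genes. The median difference over the 8 was 0.67 and over all genes tested -0.04.

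**Figure D1:**
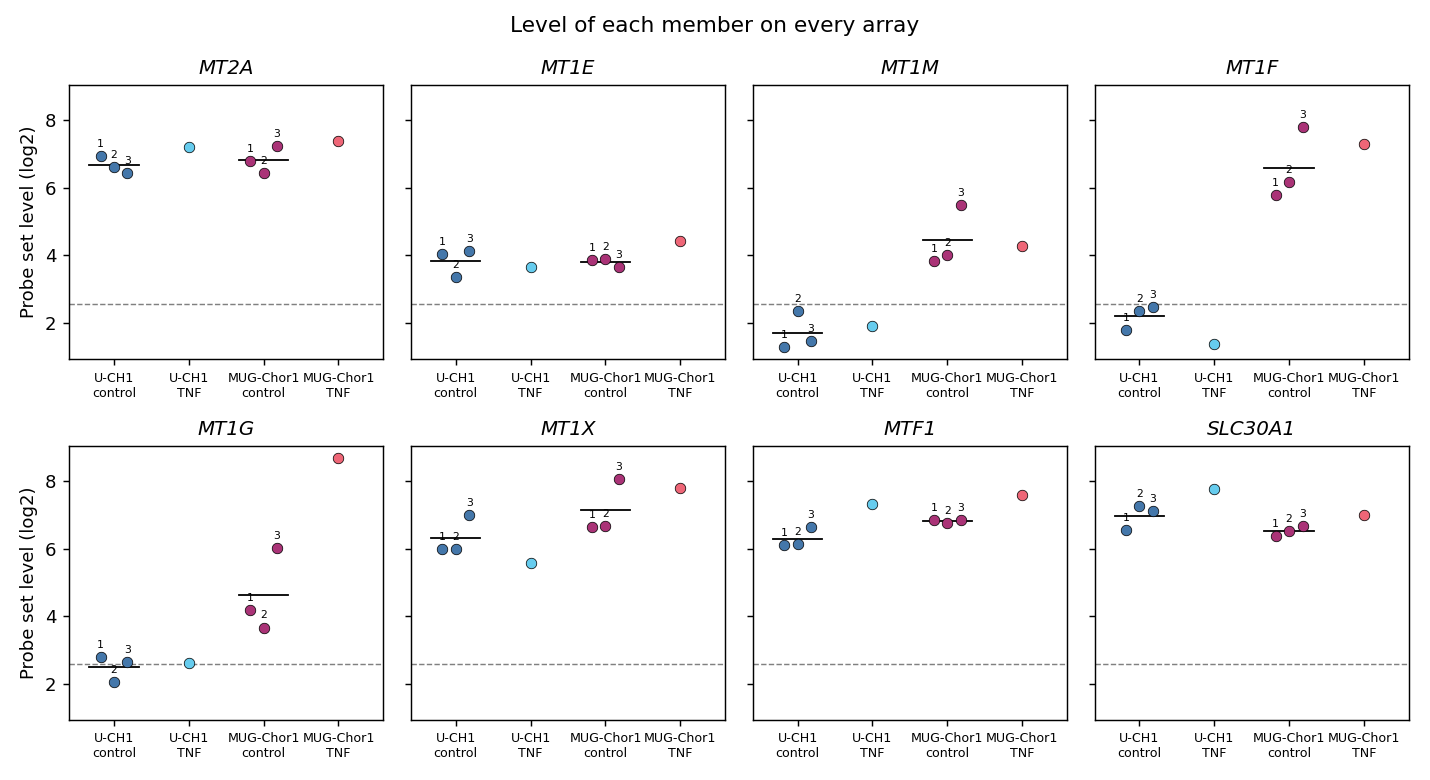
Level of each gene (log2, vertical axis) on all 8 arrays by line and treatment; each point is 1 array, numbers mark the control arrays, black bars are means of 3 controls, and the dashed line is the median of all deposited values, 2.57. MT1F, MT1M and MT1G sit higher in MUG-Chor1 than in U-CH1, and MT1G reaches 8.68 on the MUG-Chor1 TNF array.

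Some metallothioneins, 4 of the 6 in the group, varied widely among the MUG-Chor1 controls. On control 3, MT1F, MT1G, MT1M and MT1X each read more than 1 above both other controls, which holds for 2.09% of all genes tested. Against the mean of controls 1 and 2 the excess was 2.09 for MT1G, 1.81 for MT1F, 1.57 for MT1M and 1.41 for MT1X. MT2A stood 0.62 higher there, MT1E -0.23, MTF1 0.03 and SLC30A1 0.23, while the median over all genes tested was 0.00. The range over the 3 MUG-Chor1 controls was 0.24 for MT1E and 0.16 for MT1H, under the median of 0.41 over all genes tested. MT1H was under the low mark on all 3, so its narrow range says little. For the pseudogene MT1CP, above the mark on every array, the range was 0.94, with control 3 higher by 0.75. This pattern was described after its values were seen.

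The mean level of 9 oxidative stress targets of NRF2, the transcription factor of the oxidant response, was 6.32, 6.22 and 6.32 on MUG-Chor1 controls 1, 2 and 3. That of 5 of the 8 listed heat shock genes was 7.22, 7.32 and 7.31, and that of 7 glucocorticoid-induced genes 4.92, 5.41 and 5.31. The 8 fibroblast markers averaged 4.33, 4.27 and 3.59, so they were lower on control 3. LUM stood there at -1.50, COL1A1 at -1.26, DPP4 at -0.98 and THY1 at -0.93 against the mean of controls 1 and 2. FAP stood at -0.50, COL1A2 at -0.32 and PDGFRB at -0.28, while DCN went the other way at 0.11. FAP and DCN were under the low mark on these controls. The 7 leukocyte markers averaged 3.02, 3.12 and 3.18. The part of these markers in the metallothionein values was not tested.

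**Figure D2:**
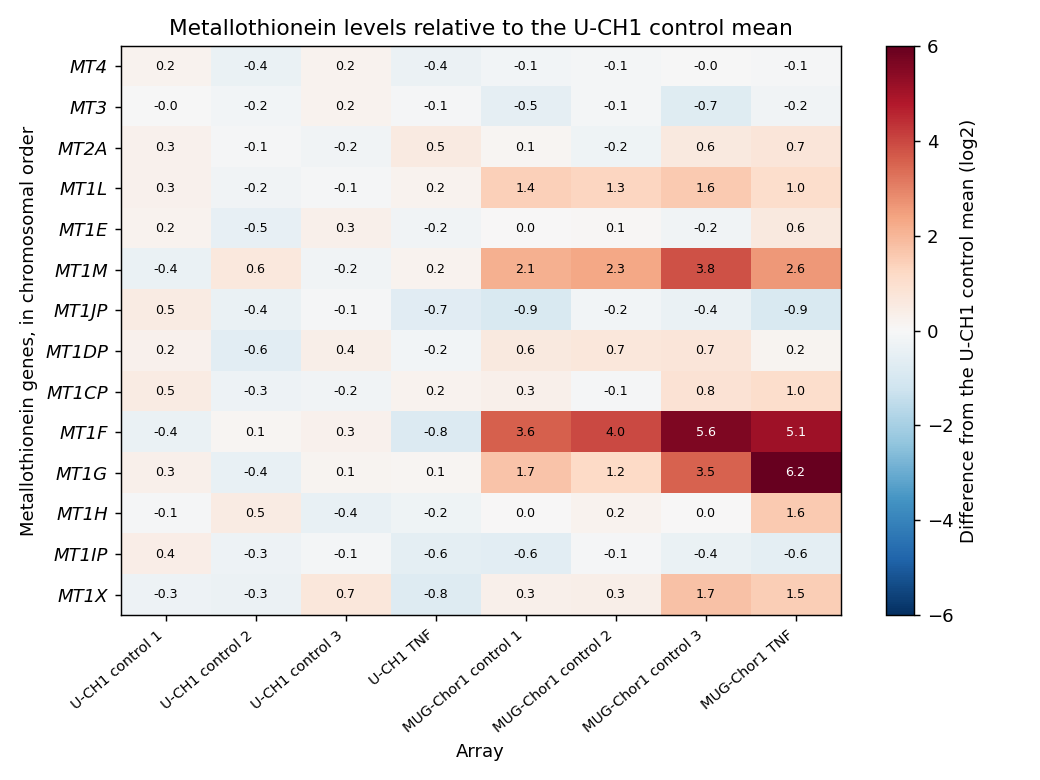
Each cell gives the level of a metallothionein gene on 1 array minus the mean of the 3 U-CH1 controls (log2, colour and number), with genes in chromosomal order from RefSeq and arrays in columns. MT1M, MT1F and MT1G are raised on all MUG-Chor1 arrays, most on control 3 and the TNF array, while MT3 and MT4 stay within 1 of the U-CH1 mean.

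TNF raised 1 of the 8 genes in MUG-Chor1. MT1G rose from 4.19, 3.66 and 6.02 on the controls to 8.68 on the TNF array, above every control. The difference was 4.05 ± 0.70 (SE; 16.6-fold; limma adjusted p = 0.0106), with the 1 TNF array assumed to vary like the controls. It was 4.75 without control 3 and 3.57 without control 2, and the call held when any of the 6 controls was left out (limma adjusted p of 8.61e-05 to 0.0392). Control 3 alone was 2.66 below the TNF array.

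The remaining metallothioneins of the group were not called with TNF in MUG-Chor1. MT1F read 7.31 on the TNF array, below control 3 at 7.80 and above the other controls, and MT1M 4.29, also within its controls. MT1X read 7.78, likewise under control 3 at 8.07. MT2A reached 7.39 and MT1E 4.41, each above its highest control, with differences of 0.57 ± 0.34 (limma adjusted p = 0.591) and 0.61 ± 0.33 (limma adjusted p = 0.529). For MT1F, MT1M and MT1X the 95% intervals ran from -0.65 to 2.09, from -1.48 to 1.15 and from -0.59 to 1.89, so changes of this size were not resolved. Without control 3 the differences were 1.32 for MT1F (limma adjusted p = 0.0664), 1.12 for MT1X (limma adjusted p = 0.210) and, with the sign turned, 0.36 for MT1M (limma adjusted p = 0.795). Of the 8 genes, 1 was called higher and 0 lower, where 2.88% of all genes tested were called, 1.47% higher and 1.41% lower. The TNF array was above every own control for 5 of the 8, against 35.3% of all genes tested, and below for 0, against 23.9%. The median difference was 0.63 over the 8 genes and 0.06 over all genes tested.

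Markers of other cell types moved on the same array as MT1G. Of 8 fibroblast markers 4 rose with TNF in MUG-Chor1, FAP, LUM, DPP4 and DCN, and the mean level of the 8 was 5.17 there against 3.59 to 4.33 on the controls. FAP entered the test through that array alone. The other 4 were not called, with differences of -0.81 for THY1, -0.57 for COL1A1, -0.56 for PDGFRB and -0.07 for COL1A2. Of 8 chordoma markers 5 fell, ACAN, KRT19, CD24, SOX9 and TBXT, with a mean of 5.32 against 7.33 to 7.57. None of 5 tested leukocyte markers was called in limma (2 higher at unadjusted p under 0.05), with a mean over 7 markers of 3.33 against 3.02 to 3.18, and KDR fell among 5 tested endothelial markers. Their part in the MT1G value was not tested. In bulk RNA, a change in how many cells make a transcript and a change in the amount per cell cannot be told apart.

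In U-CH1 none of the 8 genes was called with TNF (0 in limma; at an unadjusted p under 0.05, MTF1 and SLC30A1 were higher), where 1.27% of all genes tested were called, 0.913% higher and 0.359% lower. MT1G read 2.60 on the TNF array, inside its control range of 2.04 to 2.79, and MT1M 1.91, inside 1.30 to 2.34. MT1F lay outside its controls, reading 1.39 against 1.80 to 2.47, all under the low mark, and MT1X read 5.57 against 5.99 to 6.99. Their differences were -0.82 ± 0.62 (limma adjusted p = 0.740) and -0.76 ± 0.56 (limma adjusted p = 0.735). MT2A read 7.22, above its highest control of 6.95, and MT1E 3.65, within its controls. The TNF array was above every own control for MT2A, MTF1 and SLC30A1, 3 of the 8, against 30.8% of all genes tested, and below for MT1F and MT1X, against 23.4%. The median difference over the 8 genes was 0.16, and over all genes tested 0.04.

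The MT1G response was set against that of the other line directly. In U-CH1, MT1G read 2.79, 2.04 and 2.63 on the controls and 2.60 with TNF, all close to or under the low mark. The comparison therefore sets a line near the low mark against one whose controls, at 4.19, 3.66 and 6.02, were all above it. A log2 effect is poorly measured at the U-CH1 level, and the part of this in the difference was not tested. The difference of the TNF effects, MUG-Chor1 minus U-CH1, was 3.94 ± 0.99 (SE), with a 95% interval of 1.74 to 6.13, and did not pass over all genes (limma adjusted p = 0.170). It passed without MUG-Chor1 control 3 (4.63, limma adjusted p = 0.00309) and with array weights (4.36, limma adjusted p = 0.0447). None of the 8 genes was called for this difference (0 in limma; at an unadjusted p under 0.05, MT1G was higher), where 0.53% of all genes tested were called, 0.2% higher and 0.33% lower. For MT2A the difference was 0.02, with an interval of -1.06 to 1.10, which leaves room for unequal responses.

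**Figure D3:**
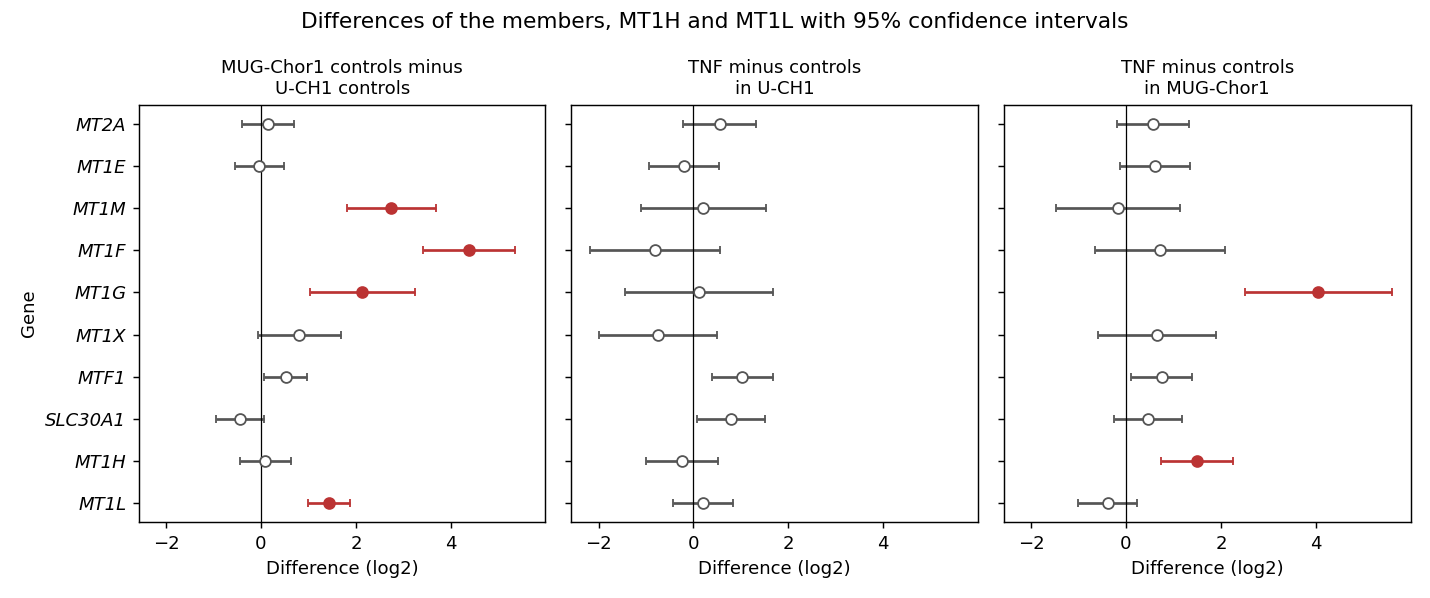
Differences (log2, horizontal axis) with 95% confidence intervals from limma for the 8 genes and for MT1H and MT1L, between the untreated lines and for TNF in each line; filled red points passed an adjusted p of 0.05. MT1F, MT1M, MT1G and MT1L pass between the lines, MT1G and MT1H pass with TNF in MUG-Chor1, and no gene shown passes in U-CH1; MT1F, MT1M, MT1L and MT1H entered the test only through the group where they are high.

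MTF1, the factor that senses zinc, stood above its own controls on the TNF array of each line. In U-CH1 it read 7.33 against 6.10 to 6.65, a difference of 1.03 ± 0.29 (SE; limma adjusted p = 0.157). In MUG-Chor1 it read 7.58 against 6.77 to 6.86, a difference of 0.76 ± 0.29 (SE; limma adjusted p = 0.285). Neither passed in its own line. A fit with 1 shared TNF term and 1 line term, added after these values were seen, used all 8 arrays and gave 0.89 ± 0.20 (SE; 1.86-fold; limma adjusted p = 0.0460). That call ended without either TNF array and without each control except U-CH1 control 3 (limma adjusted p of 0.0564 to 0.285). It also ended with arrays centred on their medians (limma adjusted p = 0.0533) and with array weights (limma adjusted p = 0.054).

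SLC30A1, the exporter that MTF1 regulates, was also above its own controls on both TNF arrays. It read 7.77 with TNF in U-CH1 against 6.55 to 7.27, a difference of 0.79 ± 0.32 (SE; limma adjusted p = 0.383). In MUG-Chor1 it read 6.99 against 6.38 to 6.68, a difference of 0.46 ± 0.32 (SE; limma adjusted p = 0.664). Over both lines the added model gave 0.63 ± 0.22 (limma adjusted p = 0.196), and 0.56 ± 0.23 for MT2A (limma adjusted p = 0.282). MTF1, SLC30A1 and MT2A were the 3 of 8 genes whose TNF array was above every own control in both lines, which held for 15% of all genes tested. In the added model 1 of the 8 genes was called higher and 0 lower, where 2.48% of all genes tested were called, 1.55% higher and 0.93% lower. The same fit called 2 of 5 tested leukocyte markers higher, CD68 (0.84) and ITGAM (0.83), the latter above the low mark on only 4 arrays. Of 8 fibroblast markers 1 was called higher, DPP4 (1.39), while 5 of the 8 differences were positive and the lowest was -0.40. Of 8 chordoma markers 3 were called lower, ACAN (-2.43), KRT19 (-2.05) and TBXT (-1.30). Of 9 tested NRF2 targets 3 were called higher, HMOX1 (1.72), SRXN1 (1.09) and SQSTM1 (0.999). The HMOX1 call ended without the U-CH1 TNF array. That of SQSTM1 ended without either TNF array and without MUG-Chor1 control 1 or 2 or U-CH1 control 1. That of SRXN1 ended without the MUG-Chor1 TNF array, with no filter on low values and without each control except U-CH1 control 3. The part of these markers and targets in the MTF1 value was not tested.

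Ordered by group, MT1F, MT1M and MT1G shared a pattern in which both MUG-Chor1 groups were above both U-CH1 groups. For MT1F and MT1M the MUG-Chor1 TNF array lay inside its control range, so the order of those neighbours was not resolved, whereas for MT1G it lay above. For MT1X the U-CH1 TNF array was lowest and the MUG-Chor1 TNF array was inside its controls. For MTF1 both TNF arrays were above all 6 controls. For MT2A the MUG-Chor1 TNF array was highest, and the U-CH1 TNF array, at 7.22, lay just under MUG-Chor1 control 3 at 7.23. For SLC30A1 the U-CH1 TNF array was highest, and the MUG-Chor1 TNF array fell inside the U-CH1 control range. MT1E showed no order beyond its spread, apart from the MUG-Chor1 TNF array at the top.

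Further genes of the cluster gave a divided picture. The list held 10 other metallothionein genes and pseudogenes, of which 9 were named on the array and 8 tested; MT1B stayed under the low mark on all arrays. MT1H, another metallothionein 1 gene and the next of the family after MT1G on the chromosome, read 1.91, 2.07 and 1.91 on the MUG-Chor1 controls and 3.46 on the TNF array. The difference was 1.499 ± 0.34 (SE; limma adjusted p = 0.0452), with all controls under the low mark and entry into the test through that array alone. The call ended with no filter on low values (limma adjusted p = 0.0568) and without U-CH1 control 1 or any 1 of the 3 MUG-Chor1 controls (limma adjusted p of 0.055 to 0.123). In U-CH1, MT1H read 1.63 with TNF, inside its controls.

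MT1L, a transcribed pseudogene, was the 1 other gene of this list called between the untreated lines. It read 1.49, 1.04 and 1.16 in U-CH1 and 2.64, 2.53 and 2.82 in MUG-Chor1, a difference of 1.43 ± 0.20 (SE, n = 3 and 3; limma adjusted p = 0.000740), having entered the test through 2 MUG-Chor1 controls alone, and was called with no filter too (limma adjusted p = 0.000931). MT3, known from brain, and MT4, known from squamous epithelium, were not called in any comparison, with differences between the lines of -0.47 (limma adjusted p = 0.165) and -0.09 (limma adjusted p = 0.829). The pseudogenes MT1JP, MT1DP and MT1IP differed between the lines by -0.49, 0.65 and -0.37 and with TNF in MUG-Chor1 by -0.44, -0.48 and -0.22, none of them called. MT1CP, a pseudogene by RefSeq, read 6.48 to 7.81 on every array, and RNA of a near-identical gene read by this probe set was not tested.

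Zinc transporters were called in few cases. Of 6 tested SLC30 exporters other than SLC30A1, SLC30A4 was lower in untreated MUG-Chor1 by 0.86 (difference -0.86 ± 0.19, limma adjusted p = 0.0104), and none was called with TNF in either line (0 in limma; 0 at unadjusted p under 0.05). SLC30A6 stood at 0.33 in U-CH1 and SLC30A5 at 0.69 in MUG-Chor1. The differences were positive for 3 of the 6 in U-CH1 and 6 of the 6 in MUG-Chor1. Their medians were 0.07 and 0.51, against 0.04 and 0.06 over all genes tested. Of 11 tested SLC39 importers, SLC39A7 was lower in untreated MUG-Chor1 (-1.29 ± 0.20, limma adjusted p = 0.00140) and SLC39A13 higher (0.82 ± 0.20, limma adjusted p = 0.0155). Both are transporters of the secretory pathway, and the SLC39A13 call ended without MUG-Chor1 control 1 (limma adjusted p = 0.0747). With 1 of the 11 called higher and 1 lower, the importers were near the shares over all genes tested, 10.3% and 8.57%.

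With TNF, SLC39A8 and SLC39A14 rose in MUG-Chor1, 2 of the 11 importers, where 1.47% of all genes tested were called higher. SLC39A8, a plasma membrane importer of zinc and manganese known as an NF-kB target, read 4.64, 4.24 and 5.40 on the controls and 7.09 on the TNF array, a rise of 2.33 ± 0.40 (SE; 5.04-fold; limma adjusted p = 0.00980). Control 3 was again the highest control. In U-CH1 it read 5.13 against 4.54 to 4.90 and was not called (0.40 ± 0.40, limma adjusted p = 0.831), and the difference of the effects, 1.94 ± 0.56, did not pass (limma adjusted p = 0.261), though it did without MUG-Chor1 control 3 (2.25, limma adjusted p = 0.039). SLC39A14, an importer of zinc and iron known from inflammation, read 6.14, 6.14 and 5.73 on the MUG-Chor1 controls and 7.52 with TNF, a rise of 1.52 ± 0.32 (SE; 2.86-fold; limma adjusted p = 0.0300). That call ended without MUG-Chor1 control 1 or 2 or U-CH1 control 1 (limma adjusted p of 0.0525 to 0.0675). In U-CH1 it read 6.95 against 5.93 to 6.53 (0.67 ± 0.32, limma adjusted p = 0.491). In U-CH1 none of the 11 importers was called (0 in limma; 1 each way under an unadjusted p of 0.05), with SLC39A1 at 1.04 (limma adjusted p = 0.343). Over both lines the added model gave for SLC39A14 1.09 ± 0.25 (limma adjusted p = 0.0487), a call that ended without the MUG-Chor1 TNF array and without each control except U-CH1 control 3 (limma adjusted p up to 0.491), and also with no filter, quantile normalization or array weights (limma adjusted p of 0.0554 to 0.0598).

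**Figure D4:**
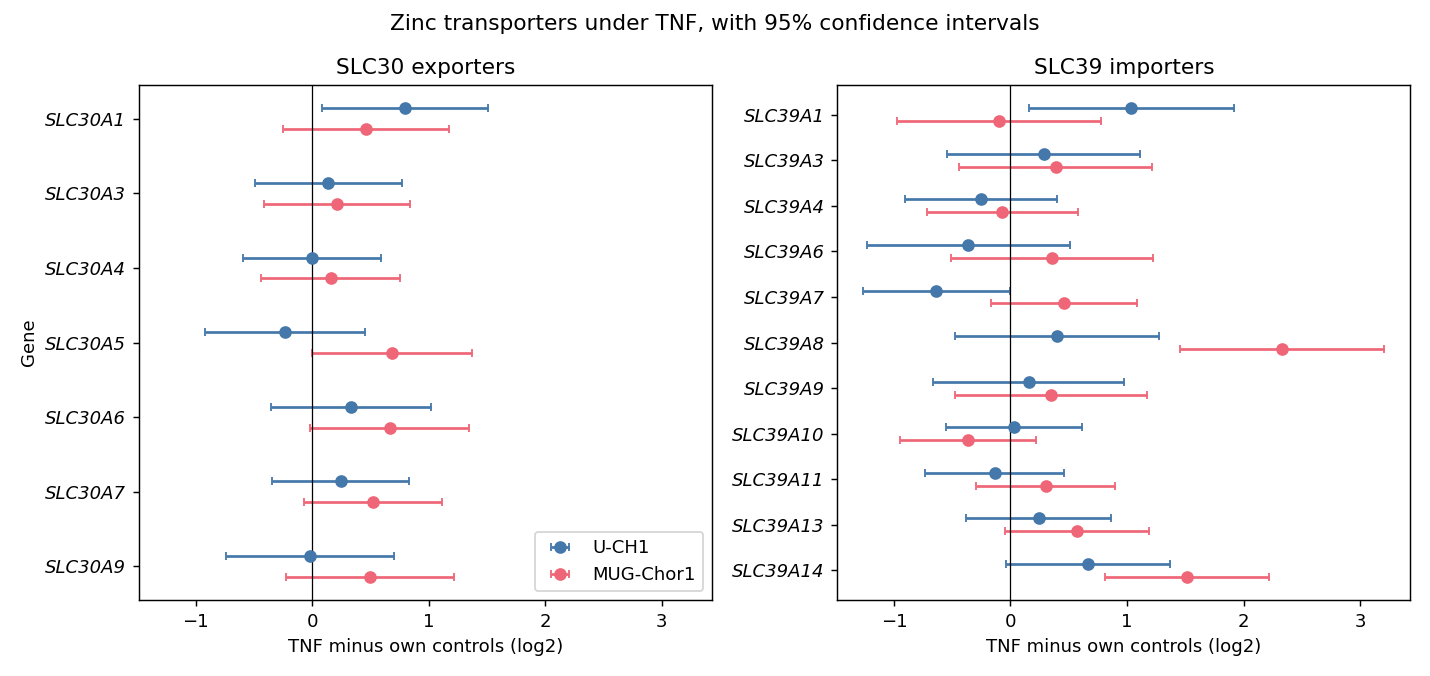
TNF array minus the mean of its own line's 3 controls (log2, horizontal axis) with 95% confidence intervals for the tested SLC30 exporters and SLC39 importers, U-CH1 in blue and MUG-Chor1 in red. SLC39A8 and SLC39A14 lie farthest to the right in MUG-Chor1, at 2.33 and 1.52.

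Metal handling beyond zinc and the stress programmes known to induce metallothioneins were called in part. Of 12 tested copper genes, none was called with TNF in U-CH1 (0 in limma; 2 higher at unadjusted p under 0.05) or in MUG-Chor1 (0 in limma; 2 higher and 1 lower), with SLC31A2 at 1.34 in U-CH1 (limma adjusted p = 0.0546) and the copper importer gene SLC31A1 at 1.10 in MUG-Chor1 (limma adjusted p = 0.0931). With array weights both passed (limma adjusted p = 0.0345 and 0.0442), and SLC31A2 also passed without MUG-Chor1 control 3 (limma adjusted p = 0.0369). Between the untreated lines STEAP2 was higher in MUG-Chor1 by 1.04, while SCO1 (-1.08), STEAP3 (-0.95) and SLC31A1 were lower. Of 9 tested NRF2 targets, HMOX1, which degrades heme, rose by 2.37 in U-CH1 (limma adjusted p = 0.00794), and the cystine transporter gene SLC7A11 by 2.56 and SRXN1 by 1.51 in MUG-Chor1 (limma adjusted p = 0.00176 and 0.0239). At an unadjusted p under 0.05 in limma, 2 of the 9 were higher in U-CH1 and 7 in MUG-Chor1, and 0 lower. The differences were positive for 9 and 8 of the 9, with medians of 0.49 and 0.88 against 0.04 and 0.06 over all genes tested. Their mean level was 6.97 and 7.30 on the TNF arrays, against 6.25 to 6.41 and 6.22 to 6.32 on the own controls. Their part in the metallothionein values was not tested. The SRXN1 call ended without MUG-Chor1 control 1 or 2 and with the mean of its probe sets (limma adjusted p of 0.0636 to 0.109). ACO1 was the 1 of 9 tested iron genes called with TNF in MUG-Chor1, at 1.29 (limma adjusted p = 0.0452), and the call ended without any 1 of the 6 controls (limma adjusted p of 0.0504 to 0.12). Of 8 listed heat shock genes 5 had a probe set with a single symbol, so HSPA1A, HSPA1B and HSPA8 were not measured here. None of the 5 was called with TNF in either line (0 in limma; 0 at unadjusted p under 0.05). The same held for 7 glucocorticoid-induced genes (0 in limma; 1 higher in U-CH1 and 2 lower in MUG-Chor1 at unadjusted p under 0.05), and for 3 zinc-binding S100 genes (0 in limma; 1 lower in U-CH1).

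Between the untreated lines these lists were mixed. The small heat shock gene HSPB1 was higher in MUG-Chor1 by 1.86 and S100B by 1.04, and HSPH1 lower (-0.61). Among the glucocorticoid-induced genes DUSP1, a phosphatase gene, was higher by 2.26 and ERRFI1 by 1.35, and SGK1 lower (-0.85). SQSTM1 was higher by 0.93 and HMOX1 lower (-0.90), and of the iron genes FTL, a ferritin subunit gene, was higher by 0.69 and ACO1, which encodes an iron regulatory protein, lower (-1.42). Leaving out 1 control ended the calls of STEAP3, HSPH1, FTL, SGK1, HMOX1, S100B and DUSP1 in at least 1 case each (limma adjusted p of 0.0528 to 0.178). MUG-Chor1 control 3 was such a control for HMOX1 (-0.69, limma adjusted p = 0.0558) and HSPH1 (-0.64, limma adjusted p = 0.0667). S100B had entered the test through MUG-Chor1 alone.

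Likeness to other genes was measured as the root mean square distance over the 8 arrays between profiles centred on each gene's own mean, a description without a test in which all genes share the same arrays. Nearest to MT2A among genes outside the group were KDM8 at 0.142, SH2D4B at 0.149 and DISP3 at 0.151, where the median gene lay at 0.467. Nearest to MT1X were ZNF417 at 0.192, CEP41 at 0.290 and MARVELD2 at 0.291, with a median of 0.888. Nearest to SLC30A1 were NCOA7 at 0.127, IL10RB at 0.137 and RAB39A at 0.145, with a median of 0.526. The other metallothioneins of the group lay farther from MT2A, at a median distance of 1.36. Within the group the closest pair was MT2A and MTF1 at 0.390, and among metallothioneins MT2A and MT1E at 0.423. The root mean square of the centred MT2A profile itself was 0.348, so a flat profile would lie nearer to MT2A than either gene. These small distances therefore do not show that the genes vary alike. MT1F and MT1M, both high in MUG-Chor1, lay 1.17 apart.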

How the data were processed

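The authors deposited log2 values for 53617 probe sets on each array, made with RMA and Transcriptome Analysis Console per the submitters' processing notes, which give no versions. The log base rests on what RMA usually returns and on values between 0.0648 and 12.7. Since RMA normally forces arrays to 1 distribution, a shift of all genes would not show. No genome build is named for the array's annotation.

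Of the probe sets, 23871 had 1 symbol, 1842 several and 27904 none listed; symbols were updated through Entrez identifiers, and the brightest probe set stood for each gene. Tests used limma 3.58.1 in R 4.3.3 (a model of 4 group means, eBayes, two-sided, Benjamini-Hochberg over 16986 genes, threshold 0.05), after tests on simulated data. The spread comes from the 6 controls. Precision is limited by the number of arrays. The genes and lists were chosen with earlier results of these data known. Named were the 9 genes, every tested metallothionein, at most 3 called genes per other list and comparison by size (or the 1 with the smallest p), and the 3 genes nearest to MT2A, MT1X and SLC30A1; the markers, SLC31A1, and SLC39A8 and SLC39A14 in U-CH1 were added after their values were seen.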

Additional observations from a re-analysis of the deposited data

Results flagged for a closer look

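ACO1 and SLC7A11, of the iron and NRF2 lists, responded differently to TNF in the lines by a test of the difference itself. ACO1 read 6.35 with TNF in U-CH1 against 7.10 to 7.63 on the controls, and 7.28 in MUG-Chor1 against 5.88 to 6.19, a difference of effects of 2.34 ± 0.42 (SE; limma adjusted p = 0.0434). SLC7A11 read 7.10 in U-CH1 against 6.78 to 7.28, and 9.53 in MUG-Chor1 against 6.74 to 7.33, a difference of 2.52 ± 0.45 (SE; limma adjusted p = 0.0450). Both calls ended without each of the 3 U-CH1 controls and without MUG-Chor1 control 1 or 2 (limma adjusted p up to 0.0927 and 0.115). That of SLC7A11 also ended with no filter on low values (limma adjusted p = 0.0561) and with arrays centred on their medians (limma adjusted p = 0.0514).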

How the results depend on the processing

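Of 520 values of the 8 genes under the alternatives to the planned comparisons, 503 kept their direction and side of the threshold, 1 lost its call, 4 gained one and 12 changed sign; 0 of these 12 were called under either setting. With the replicate block on the 6 controls, MT1X became called (0.807, limma adjusted p = 0.0222), and 4 of the 8 genes and 3248 genes in all were called between the lines. The numbers did not pair the controls: deviations of arrays sharing number 1, 2 or 3 correlated at 0.04, -0.06 and 0.16, and only the controls numbered 3 correlated best with their own number. Array weights gave 765 genes with TNF in MUG-Chor1 (489 without) and 1 of the 8 for the difference of the TNF effects (0 without), and a log2 difference of at least 1 as a further condition left 1816 of the 3209 genes called between the lines. Signs turned for MT4 with TNF in MUG-Chor1 (-0.00084) and MT2A for the difference (-0.00037) under quantile normalization, and for MT1E between the lines (0.0064) with centred medians. With array weights they turned for MT1M with TNF in MUG-Chor1 (0.118) and, over both lines, for MT1F (0.155) and MT1X (0.11). The cause was not tested.

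Leaving out 1 array gave 2123 (without MUG-Chor1 control 1) to 3090 genes between the lines, 104 (without U-CH1 control 2) to 329 with TNF in U-CH1 (216 with all), 284 (without MUG-Chor1 control 1) to 664 in MUG-Chor1, and 38 to 152 for the difference (90 with all), where 0 to 1 of the 8 genes were called. The highest counts came without MUG-Chor1 control 3. Values that changed sign were, between the lines, MT1E (-0.279 to 0.112), MT2A (-0.06 to 0.34), MT1H (-0.123 to 0.337) and MT4 (-0.291 to 0.017). With TNF in U-CH1 they were MT1G (-0.106 to 0.269), MT1H (-0.456 to 0.0041), MT1DP (-0.458 to 0.033) and MT3 (-0.151 to 0.039), and in MUG-Chor1 MT1M (-0.469 to 0.36). For the difference they were MT1M (-0.687 to 0.154), MT2A (-0.172 to 0.228) and MT1JP (-0.0055 to 0.439). For the shared TNF term over both lines, which without a TNF array is the other line's effect, they were MT1E (-0.191 to 0.608), MT1F (-0.818 to 0.718), MT1M (-0.164 to 0.278), MT1X (-0.756 to 0.65), MT1H (-0.242 to 1.5), MT1L (-0.389 to 0.204), MT3 (-0.062 to 0.25) and MT4 (-0.354 to 0.033).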
